A study of Xenopus laevis with 3 samples.

Results

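The genes described are 9 products of the Spemann organizer of the *Xenopus laevis* gastrula: the secreted antagonists chrd.1, nog, cer1, frzb and dkk1 and the transcription factors gsc, otx2, lhx1 and hhex. Every probe set was taken whose single gene symbol in the platform annotation has one of these names, whichever of the 2 subgenomes (L or S) it comes from and with chrd counted as chrd.1. All 9 genes had a probe set, out of 9240 gene names with one, and together they had 18 of the 32539 probe sets. Embryos fertilized in vitro were injected in the animal pole with water (control), with mRNA of the glycine receptor chloride channel GlyR, or with mRNA of the 666 chimera, a dominant-negative KATP potassium channel (DN-KATP). The paper, not the labels, says that the GlyR embryos were kept in ivermectin (IVM), which opens the channel, and that both treatments depolarize the injected cells. The stage of injection is given differently in the methods (1 cell) and in the labels (4 cells). RNA of 50 pooled whole embryos at stage 11 was hybridized to 1 Affymetrix array per condition. No spread between replicates, test or p-value can therefore be had, and every ratio below describes these 3 arrays. In such whole-embryo RNA, fewer organizer cells and less RNA per cell cannot be told apart. Neither source used here says that the controls received ivermectin, so its effect and that of GlyR cannot be told apart.

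The organizer is the dorsal lip region of the amphibian gastrula, known for inducing the neural plate and the body axis. It works largely by secreting proteins that block BMP, Wnt and Nodal signaling outside the cell. Dorsal tissue is thereby shielded from the ventralizing BMP and Wnt signals around it. Its homeodomain transcription factors set up this secretion and divide the organizer into a leading anterior endomesoderm, which lies under the future head, and a trailing part that forms prechordal plate and notochord. *X. laevis* is allotetraploid, so most of these genes exist as an L and an S homeolog.

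Signals are MAS5 values on a linear scale, as the authors deposited them, and the median over all probe sets was between 92.7 and 101 on the 3 arrays. Detection is taken as a signal of 40 or more, which 23003 probe sets reached on any array. A probe set is called higher or lower past 2-fold with at least 40 on the brighter array. All 18 probe sets for gastrula markers such as tbxt, eomes, vegt, mixer and wnt8a reached 40 on all 3 arrays. Of 16 probe sets for genes of differentiated tissues (myh6, tnni3, ins, neurod1, mbp, cryba1 and actc1), the number that reached 40 was 2 in the control, 6 for GlyR+IVM and 3 for DN-KATP. The muscle actin gene actc1 accounts for the bright ones, with 939, 2361 and 1386 at a probe set in control, GlyR+IVM and DN-KATP and 2672, 6311 and 3847 at another. The summed signal of this list was 3848, 9074 and 5518, and its part in the results below was not tested. The hybridization spike-ins, transcripts added to each hybridization mix, read higher than in the control, by 0.45 on the log2 scale in GlyR+IVM and by 0.55 for DN-KATP. Scaling the arrays to them lowers every ratio to control by these amounts. The median log2 ratios to control of all 23003 probe sets then became -0.43 and -0.49.

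Of the 9 organizer genes, the antagonist genes chrd.1, nog and dkk1 and the transcription factor gene lhx1 were brighter than the control in both depolarized arrays at each of their probe sets that reached 40, by 1.18-fold to 1.74-fold, though after spike-in scaling chrd.1 turned below the control in both arrays and the gene means of nog, dkk1 and lhx1 did so in DN-KATP. The head antagonist gene cer1 was 2.04-fold dimmer in DN-KATP than in the control and nearly level in GlyR+IVM. Both homeologs of the Wnt antagonist gene frzb were also dimmer in DN-KATP than in either other array. Signals of gsc differed between its homeologs. In GlyR+IVM otx2 was dimmer than the control at both homeologs, and in DN-KATP otx2.S was dimmer still (-0.47) while otx2.L was nearly level (0.05). The gene hhex lay close to the control, 1.12-fold above it in GlyR+IVM and 1.01-fold below it in DN-KATP (below it in both arrays after spike-in scaling). As deposited, only cer1 passed 2-fold, and only in DN-KATP against control. On the spike-in scale cer1.S (-1.58), frzb.S (-1.22) and otx2.S (-1.01) were all past 2-fold lower there, where 12.3% of all probe sets were called lower.

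**Figure D1:**
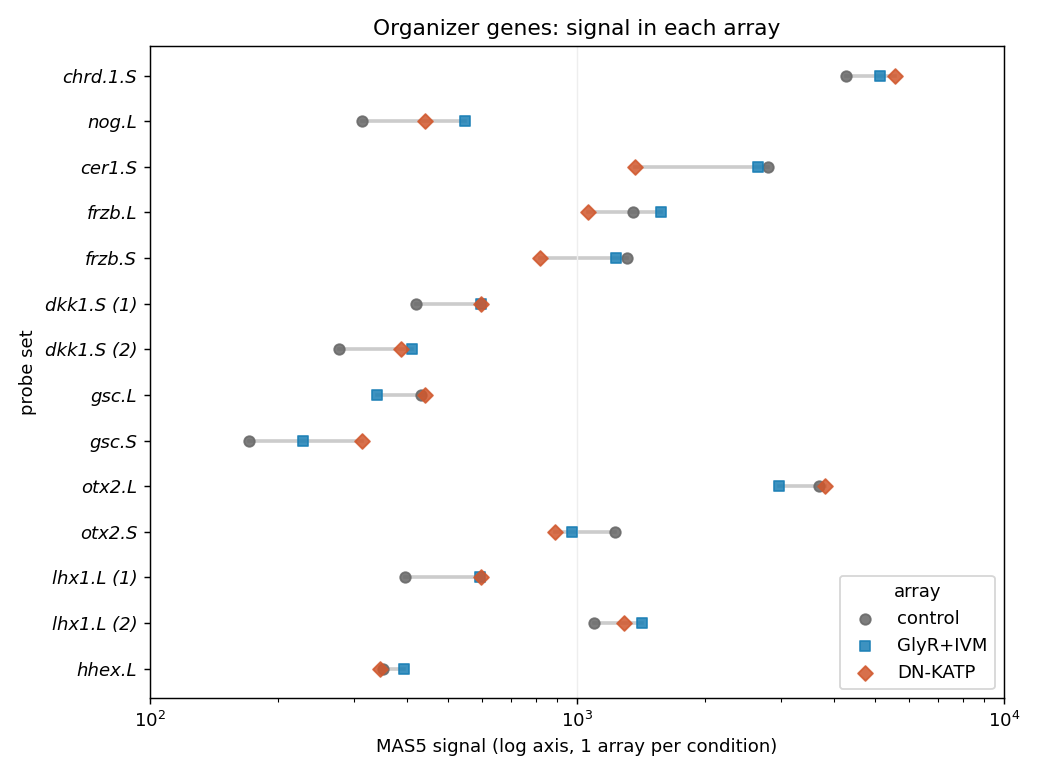
MAS5 signal (log axis) of the 14 organizer probe sets that reached 40, with a marker for each of the 3 arrays and a grey bar from the lowest to the highest. Numbers in brackets tell apart probe sets of a gene. For cer1.S and both frzb homeologs the DN-KATP marker is the lowest of the 3, while for chrd.1.S, nog.L, dkk1.S and lhx1.L the control marker is the lowest, which spike-in scaling turns for chrd.1.S and the brighter lhx1.L probe set against both arrays and for nog.L and dkk1.S against DN-KATP.

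The chordin gene chrd.1 encodes a large secreted protein that binds BMPs and is cut by Tolloid-type proteases. Its probe set, for the S homeolog, read 4277 (control), 5125 (GlyR+IVM) and 5554 (DN-KATP). Both depolarized arrays were thus brighter, with log2 ratios of 0.26 and 0.38 (1.30-fold in DN-KATP). Spike-in scaling turned these to -0.19 and -0.17, where the medians of all probe sets were -0.43 and -0.49. This probe set is of a type (_a_at) that can bind more than 1 transcript. Noggin, encoded by nog, is a small secreted protein that blocks BMPs from reaching their receptors. Its L homeolog had 314 (control), 547 (GlyR+IVM) and 440 (DN-KATP). The GlyR+IVM signal was the highest, 1.74-fold above the control, and the DN-KATP signal was 1.40-fold above it. On the spike-in scale the log2 ratio of nog in GlyR+IVM was 0.35 and that in DN-KATP turned to -0.06. Under the rule chrd.1.L and nog.S had no probe set, and neither had cer1.L, dkk1.L, lhx1.S and hhex.S.

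Cerberus, the product of cer1, is secreted by the anterior endomesoderm and binds Nodal, BMP and Wnt ligands. The bright probe set of cer1.S (Xl2.368.1.S1_at) had 2796 (control), 2653 (GlyR+IVM) and 1367 (DN-KATP). The first 2 arrays were within 1.05-fold of each other, and the DN-KATP array stood apart from both, with log2 ratios of -1.03 to the control and -0.96 to GlyR+IVM. The latter passed 2-fold after scaling to a common median (-1.03) and to the spike-ins (-1.06). The ratio to the control lies close to the 2-fold threshold: quantile normalization gave -0.99, short of 2-fold, and scaling to a common median gave -1.16. The middle 90% of all probe sets whose highest signal was 1000 or more lay between -0.59 and 0.59 in DN-KATP against control. In that band 1.26% of the probe sets were called lower, and the bright cer1.S probe set is among them.

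Frzb is a secreted relative of the Frizzled receptors that binds Wnt ligands such as Wnt8. The signal of frzb.L was 1353 (control), 1576 (GlyR+IVM) and 1061 (DN-KATP), and that of frzb.S was 1309, 1238 and 820. DN-KATP was the dimmest array for both homeologs, and GlyR+IVM lay on either side of the control. Against control the log2 ratios in DN-KATP were -0.35 for frzb.L and -0.68 for frzb.S, and in GlyR+IVM 0.22 and -0.08. Spike-in scaling turned the frzb.L ratio in GlyR+IVM to -0.23 and the mean of both homeologs there from 0.07 to -0.38. Set against GlyR+IVM directly, DN-KATP was lower by nearly the same amount at both homeologs, -0.57 for frzb.L and -0.59 for frzb.S. As deposited none of these reached 2-fold, but on the spike-in scale frzb.S in DN-KATP passed it, with -1.22, and frzb.L had -0.90.

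**Figure D2:**
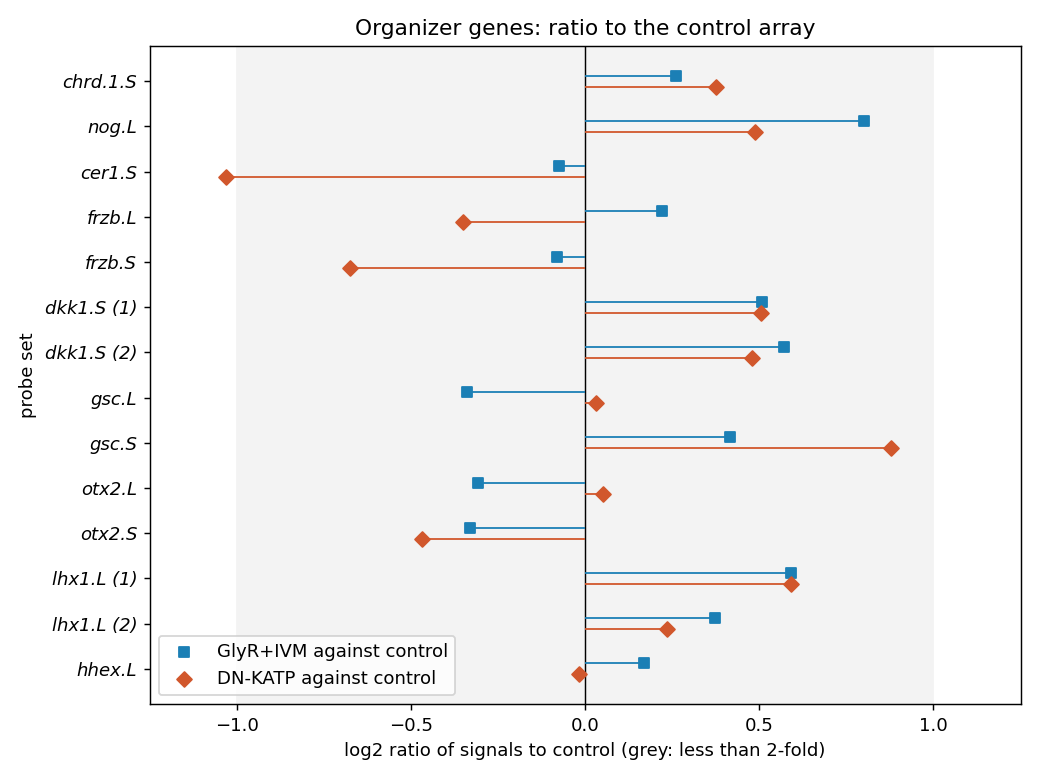
Log2 ratio of the signal to the control array for each of the 14 organizer probe sets, with squares for GlyR+IVM and diamonds for DN-KATP; the grey area is less than 2-fold. All values but that of cer1.S in DN-KATP (-1.03) lie inside it, and frzb.L, gsc.L, otx2.L and hhex.L have the 2 arrays on opposite sides of 0 in the deposited values.

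Dickkopf-1, encoded by dkk1, blocks Wnt signaling by binding the coreceptors LRP5 and LRP6 and is needed for head formation. Its S homeolog was measured at a pair of probe sets. One had 420 (control), 598 (GlyR+IVM) and 596 (DN-KATP), and the other had 277, 412 and 386. The control was the lowest array at both, and the depolarized arrays were close to each other. The log2 ratios to control were 0.51 and 0.57 in GlyR+IVM, and DN-KATP gave 0.50 and 0.48. Over dkk1 as a gene the spike-in scale gave 0.09 in GlyR+IVM and turned DN-KATP to -0.05.

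Goosecoid, the product of gsc, is a homeodomain repressor of the dorsal lip. Its L homeolog had 432 (control), 341 (GlyR+IVM) and 440 (DN-KATP), and its S homeolog had 171, 228 and 313. In gsc.L the GlyR+IVM array was the dimmest and the other arrays were level, whereas gsc.S was lowest in the control and highest in DN-KATP, 1.84-fold above it. The homeologs thus differed by 0.76 in their log2 ratio in GlyR+IVM and by 0.85 in DN-KATP, while both were brighter in DN-KATP than in GlyR+IVM, by 0.37 for gsc.L and 0.46 for gsc.S. On the spike-in scale gsc.L in DN-KATP turned from 0.03 to -0.52, and gsc.S had -0.03 in GlyR+IVM and kept a ratio above 0 in DN-KATP, 0.33. Over both homeologs gsc had 0.04 in GlyR+IVM, which became -0.02 after scaling to a common median and -0.41 on the spike-in scale, and 0.45 in DN-KATP, which became -0.09 on the spike-in scale.

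The head selector gene otx2 encodes a homeodomain activator that is used in the anterior endomesoderm and later in the anterior neural plate. Its L homeolog had 3683 (control), 2973 (GlyR+IVM) and 3819 (DN-KATP). The S homeolog had 1227, 976 and 887. GlyR+IVM was below the control at both homeologs by nearly the same amount, -0.31 and -0.33 on the log2 scale. In DN-KATP they parted, with -0.47 for otx2.S and 0.05 for otx2.L, the latter turning to -0.08 after scaling to a common median and to -0.49 on the spike-in scale.

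The gene lhx1 (Lim1) encodes a LIM-homeodomain activator of organizer genes. Its L homeolog was measured at 3 probe sets, of which 2 reached 40. One of these had 395 (control), 594 (GlyR+IVM) and 595 (DN-KATP), and the other had 1097, 1419 and 1291. The control was the lowest array at both, with the ratios at the first 1.51-fold in each depolarized array and at the second 1.29-fold and 1.18-fold. As a gene lhx1 had log2 ratios of 0.48 and 0.41, and on the spike-in scale 0.03 and -0.13, where the brighter probe set was below the control in both arrays (-0.07 and -0.31) and the other above it (0.14 and 0.05).

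The gene hhex encodes a homeodomain repressor of the anterior endomesoderm, the tissue that also secretes Cerberus. The probe set of hhex.L that reached 40 had 351 (control), 394 (GlyR+IVM) and 347 (DN-KATP). Its log2 ratios of 0.17 and -0.02 became -0.28 and -0.56 on the spike-in scale. In DN-KATP, cer1 and frzb were therefore below the control while hhex was nearly level in the deposited values.

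A further 4 probe sets stayed under 40 on all 3 arrays and carry no call: 1 each of cer1.S, lhx1.L and hhex.L, and 1 with the symbol frzb without a homeolog letter, whose gene ID was not matched in the RefSeq gene table. The second probe set of cer1.S had 7.40, 18.9 and 28.7, that of frzb 4.96, 19.8 and 29.3, and that of hhex.L 3.55, 36.7 and 22.3. These were dimmest in the control, unlike the bright probe sets of cer1.S and frzb. Averaging them in would turn cer1 in DN-KATP from -1.03 to 0.46 and frzb there from -0.51 to 0.51. It would also turn hhex there from -0.02 to 1.32. The third probe set of lhx1.L had 14.1, 16.4 and 3.57, and averaging it in would turn lhx1 in DN-KATP from 0.41 to -0.39.

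Counted over the 14 probe sets that reached 40, which all had signals of at least 171 on every array, 0 organizer probe sets were called higher in GlyR+IVM and 0 lower, where 4.83% and 2.86% of all 23003 probe sets were called. In DN-KATP 0 were called higher and 1 lower (cer1.S), beside 5.49% and 2.58% of all. In DN-KATP against GlyR+IVM 0 were called in either direction, beside 4.65% higher and 3.35% lower of all. Calls were rarer among bright probe sets: of those whose highest signal was between 200 and 1000, 2.87% were called higher in GlyR+IVM, and of those from 1000 up 1.22%, and each of these bands holds 7 organizer probe sets. Past 1.5-fold, 2 organizer probe sets were higher in GlyR+IVM (nog.L and 1 of lhx1.L), and in DN-KATP 2 were higher (gsc.S and that of lhx1.L) and 2 lower (cer1.S and frzb.S). Over all probe sets, 13.0% were at least 1.5-fold higher and 9.31% lower in GlyR+IVM, and 15.3% and 8.67% in DN-KATP.

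The median log2 ratio of the 14 organizer probe sets against control was 0.24 for GlyR+IVM, where that of all 23003 was 0.01, and 0.14 for DN-KATP, where that of all was 0.05. On the spike-in scale the organizer medians turned to -0.21 and -0.40, and those of all probe sets to -0.43 and -0.49. The values ran from -0.34 (gsc.L) to 0.80 (nog.L) in GlyR+IVM and from -1.03 (cer1.S) to 0.88 (gsc.S) in DN-KATP, with standard deviations over probe sets of 0.37 and 0.54. Over all probe sets these were 0.66 and 0.69. In the 2 signal bands that hold the organizer probe sets they were smaller. With a highest signal of 200 to 1000 they were 0.55 and 0.59, and from 1000 up 0.44 and 0.52. Counted as genes, 7 of 9 were above the control in GlyR+IVM with a median of 0.17, and 5 of 9 in DN-KATP with a median of 0.38. Neither the share nor the median over all genes was taken, so these gene values have no background beside them. Counted as probe sets, 9 of 14 (64.3%) were above the control in each comparison, beside 51.5% and 55.0% of all probe sets. Both comparisons share the control array, so a dim or bright control reading moves both ratios together. Set against GlyR+IVM, which leaves the control out, DN-KATP had 5 organizer probe sets above and 9 below 0 and a median of -0.11. All probe sets had a median of 0.03, and 53.3% of them were above 0. Within its signal band, 0 of the 14 lay outside the middle 90% of all probe sets in GlyR+IVM, 3 in DN-KATP (cer1.S and frzb.S below, gsc.S above) and 2 in DN-KATP against GlyR+IVM (cer1.S and frzb.S below). By construction 10% of all probe sets lie outside. These counts rest in part on near ties. In GlyR+IVM nog.L, with 0.8011, lay just inside the limit of 0.8017. In DN-KATP gsc.S, with 0.8772, lay just outside the limit of 0.8681. In DN-KATP against GlyR+IVM frzb.L, with -0.5712, lay just inside the limit of -0.572, and frzb.S, with -0.594, lay just outside it.

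Homeologs were both measured for frzb, gsc and otx2. Over all 1570 such pairs the log2 ratios of the L and S homeologs differed by a median of 0.29, in GlyR+IVM as in DN-KATP, and 90% of the pairs differed by less than 0.96 and 0.97. The differences of frzb, 0.30 and 0.32, were near those medians, and those of gsc, 0.76 and 0.85 with gsc.S the higher, were above them and inside the 90%. For otx2 the homeologs differed by 0.02 in GlyR+IVM and by 0.52 in DN-KATP. Probe sets of a symbol that has 2 of them differed by a median of 0.29 (GlyR+IVM) and 0.27 (DN-KATP) over 1336 symbols, and 90% by less than 0.97 and 1.01. This is disagreement within an array pair and does not stand in for the spread between embryo pools.

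Other genes of the organizer and dorsal lip, written as a list with earlier results of these data known, were measured for 14 genes, among them foxa4, a forkhead factor of the dorsal midline, and frzb2 (Crescent), a further Wnt antagonist. Their median log2 ratio was 0.30 in GlyR+IVM, with 12 genes above 0, and 0.15 for DN-KATP, with 13 above 0. Of all probe sets, 51.5% and 55.0% were above 0. In this list and those below the counts are of genes, while the shares are of probe sets. A gene counts as called if any of its probe sets is, so genes with several probe sets have more chances. Counts and shares are therefore not in the same unit. Of these 14 genes 1 had a probe set called higher in GlyR+IVM and 0 were called lower. The gene called was the protocadherin gene pcdh8, from 51.1 to 179, with 102 in DN-KATP. That probe set is of a type (_s_at) that can bind more than 1 transcript. Its log2 ratio in DN-KATP, 0.997, fell just short of the call. The other pcdh8.L probe sets stayed under 40, and pcdh8.2.L had 2774, 3240 and 3067. In DN-KATP 0 were called. Of all probe sets, 4.83% were called higher and 2.86% lower in GlyR+IVM, and 5.49% and 2.58% in DN-KATP. The homeologs of foxa4 had 2475, 3980 and 3509 (S) and 2904, 3842 and 3741 (L). For frzb2.L the values were 306, 442 and 386 at a probe set and 713, 834 and 887 at another. In contrast to frzb, frzb2 was thus brighter than the control in DN-KATP as deposited, which spike-in scaling turns, since its ratios there of 0.33 and 0.32 are under 0.55.

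The proteins that the antagonists act on or are cut by gave 12 measured genes with medians of 0.11 and 0.10 and 7 above 0 in each comparison. Among them tll1.S, of the Tolloid-type proteases that cut Chordin, had 1156, 1501 and 1476 at a probe set and 939.6, 1059 and 1201 at another. Of the same protease family tll2.L was dimmer than the control in both depolarized arrays, with 226, 121 and 148, and bmp1 had mean log2 ratios of -0.04 and -0.30. The gene szl (Sizzled), which encodes a ventral inhibitor of these proteases, had 1208, 1611 and 1672 at its L homeolog. In GlyR+IVM 0 were called, and in DN-KATP bmper.L, a Chordin-related BMP regulator, was called higher with 34.9, 64.9 and 77.1. Of all probe sets, 4.83% were called higher and 2.86% lower in GlyR+IVM, and 5.49% and 2.58% in DN-KATP.

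Ventral and lateral genes, the targets and ligands that organizer proteins oppose, gave 16 measured genes with medians of 0.29 (GlyR+IVM) and 0.43 (DN-KATP). Of these genes 12 and 13 were above 0 by their mean ratio, beside 51.5% and 55.0% of all probe sets, which is an unlike unit. The ventral homeobox gene ventx1.1.L had 609, 1114 and 1490 at a probe set that was called higher in DN-KATP, and another that was called higher in GlyR+IVM had 90.3, 182 and 167. At 1 probe set bmp2.L was past 2-fold in both depolarized arrays as deposited, with 164, 669 and 347, as were 1.77% of all probe sets in the higher direction and 0.665% in the lower. Its log2 ratio in DN-KATP, 1.08, fell short of 2-fold on the quantile (0.997), common-median (0.95) and spike-in (0.53) scales. Another bmp2.L probe set had 1.22 and 0.56 and that of bmp2.S 0.60 and 0.80, so neither was past 2-fold in both. The organizer genes and this list of their ventral counterparts both had positive medians in the deposited values and both had negative ones on the spike-in scale. That scale lowers every ratio to control, and the medians of all probe sets on it were -0.43 and -0.49. Of the ventral and lateral genes 2 had a probe set called higher in each depolarized array and 0 were called lower in either. Both ventx1.1 and bmp2 have several probe sets, so this count of genes is not in the unit of the shares that follow. Of all probe sets, 4.83% were called higher and 2.86% lower in GlyR+IVM, and 5.49% and 2.58% in DN-KATP.

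Inducers of the organizer and genes of mesoderm and endoderm competence gave 17 measured genes with medians of -0.15 (GlyR+IVM) and 0.14 (DN-KATP). Brachyury (tbxt), of the mesoderm, had 7341, 5614 and 6501 at its S and 7556, 5690 and 4708 at its L homeolog. The endoderm gene sox17a had 1165, 1723 and 1753 at its S and 692, 1100 and 1051 at its L homeolog. The maternal TGF-beta ligand gene gdf1.S was the only gene of this list called in DN-KATP against control, lower with 730, 382 and 263, and 0 were called in GlyR+IVM. The T-box gene eomes.S, with 296, 151 and 336, was called higher in DN-KATP against GlyR+IVM, as were 4.65% of all probe sets. Against control, 4.83% of all were called higher and 2.86% lower in GlyR+IVM, and 5.49% and 2.58% in DN-KATP.

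**Figure D3:**
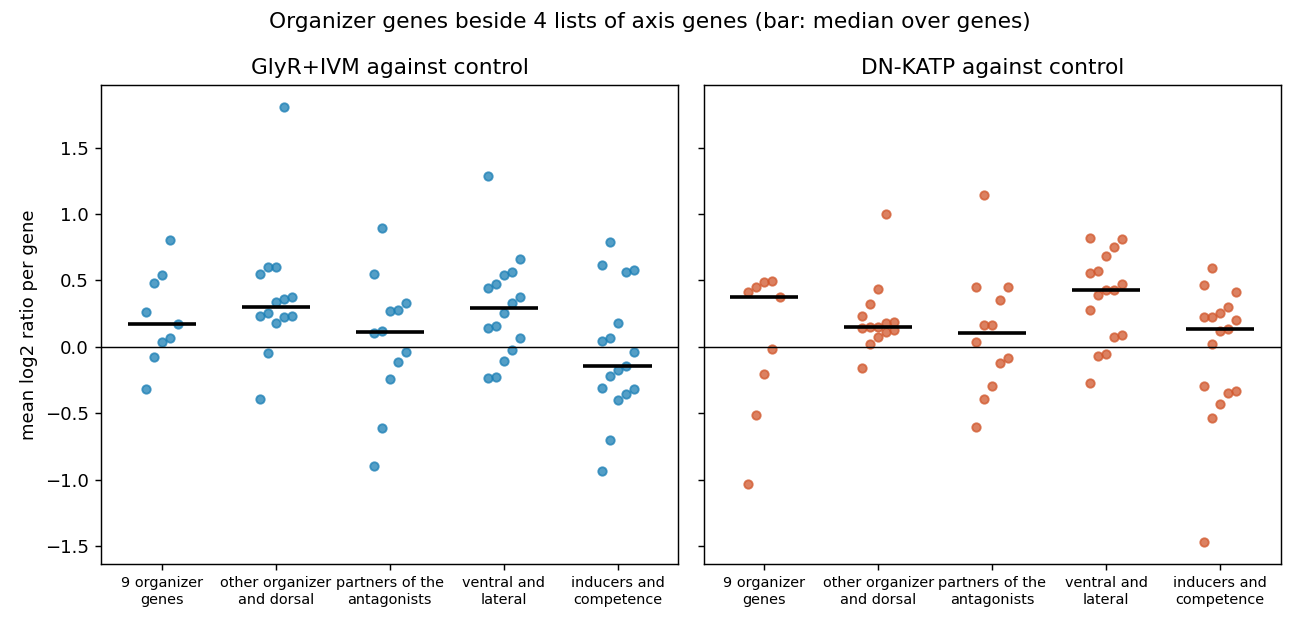
Mean log2 ratio per gene (points) and median over genes (bars) for the 9 organizer genes and 4 lists of axis genes, in GlyR+IVM (left) and DN-KATP (right). In the deposited values the ventral and lateral list has the highest median in DN-KATP, 0.43, and the inducers the lowest in GlyR+IVM, -0.15; spike-in scaling lowers all points by 0.45 (left) and 0.55 (right).

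**Figure D4:**
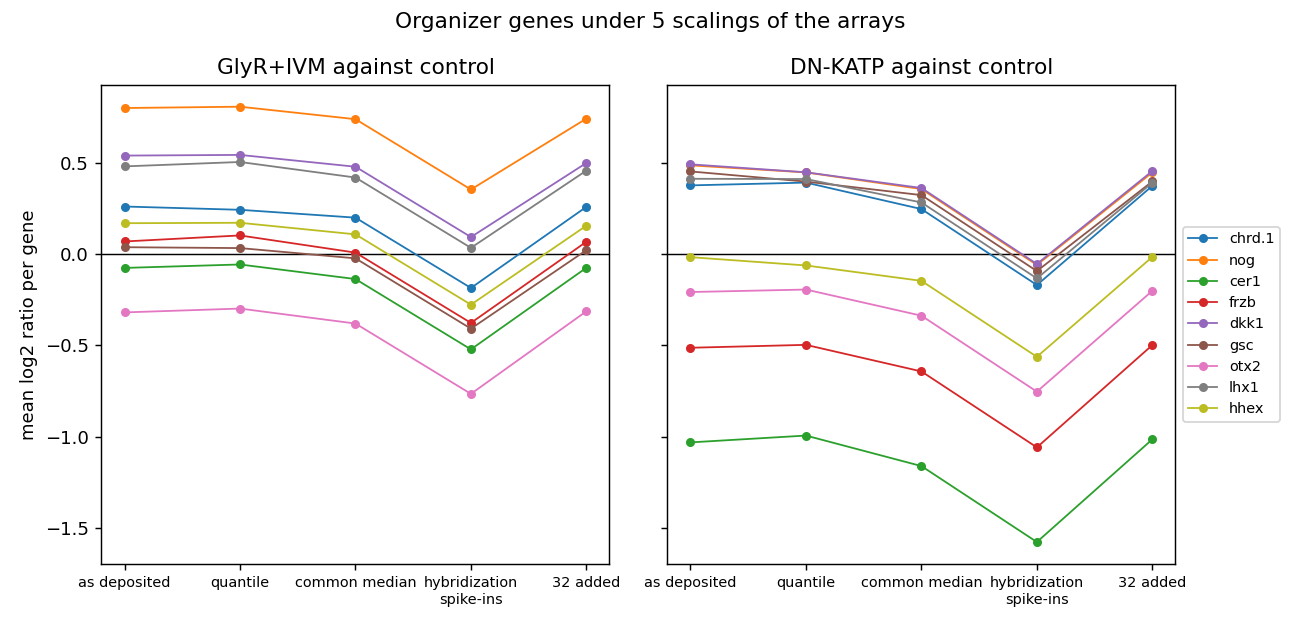
Mean log2 ratio to control of each organizer gene under 5 scalings of the arrays; lines join the values of a gene. Scaling to the spike-ins takes chrd.1, nog, dkk1, gsc and lhx1 below 0 in DN-KATP, where it takes the median of all probe sets to -0.49. In every setting cer1 is the lowest gene in DN-KATP.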

How the data were processed

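The deposited intensity values were computed by the authors with MAS5 (version not given in the sources used here), which scales each array on its own, and were used as deposited; they carry no detection calls. A single platform gene symbol was available for 15495 of 32539 probe sets, several for 279; 96 control probe sets were left out. The study's methods call genes at 2-fold with a present call, for which a signal of 40 stood here. With 1 array per group no test was made. Gene values are mean log2 ratios over probe sets at the floor. Background is the percent of all 23003 probe sets called. A list gene counts as called if any of its probe sets was, which is an unlike unit. Members and gene lists were chosen with earlier results of these data known. All probe sets of the 9 genes are named, as are list genes called the same way in both depolarized arrays; other list genes were chosen after their values were seen. The code was tested on simulated data. Alternatives were quantile, median and spike-in scaling (9 probe sets of at least 100), floors of 0, 20 and 100, and 1.5-fold and 3-fold thresholds. Others were 32 added to signals, and leaving out probe sets of types that can bind more than 1 transcript (_a_at, _s_at and _x_at). The scaling of bmp2.L was added after seeing the data. A planned motif search in promoters was not run, as no sequence was used here. Python 3.11.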

Additional observations from a re-analysis of the deposited data

How the results depend on the processing

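No paired analysis was possible because each condition has 1 array. With no replicates, a value was taken as moved past 0.36 on the log2 scale, the robust spread between the depolarized arrays over probe sets reaching 200. On the spike-in scale the organizer medians were -0.21 (GlyR+IVM) and -0.40 (DN-KATP), where those of all probe sets were -0.43 and -0.49. There 3 probe sets (cer1.S, frzb.S and otx2.S) were called lower in DN-KATP, beside 12.3% of all. In DN-KATP against GlyR+IVM 1 (cer1.S) was called lower, beside 3.15% of all. Scaling to a common median also gave 1 in that comparison, beside 3.94% of all. Quantile normalization and a 3-fold threshold left 0 called lower in DN-KATP, where the former called 3.47% of all. Dropping the floor gave 3 called higher in GlyR+IVM, 3 higher and 2 lower in DN-KATP, and 1 lower in DN-KATP against GlyR+IVM. A floor of 20 gave 1 higher in GlyR+IVM, and 3 higher and 1 lower in DN-KATP. The share of all probe sets called was not taken at these floors or at 3-fold, so these counts cannot be set beside it. A 1.5-fold threshold gave 2 higher in GlyR+IVM, 2 higher and 2 lower in DN-KATP, and 2 lower in DN-KATP against GlyR+IVM. Over all probe sets, 13.0% were at least 1.5-fold higher in GlyR+IVM, and 15.3% higher and 8.67% lower in DN-KATP. In DN-KATP against GlyR+IVM 9.55% were at least 1.5-fold lower. With no floor or a floor of 20, cer1 in DN-KATP turned to 0.46, since its dim probe set then enters the mean. In the same way frzb turned to 0.51 and hhex to 1.32 there, and with no floor lhx1 turned to -0.39. Of 267 gene values under the alternatives 229 stayed within 0.36 of the main value and 36 moved further. The other 2, both of cer1 in DN-KATP, went from past 2-fold lower to above 0. No call was reversed there, since the bright cer1.S probe set was still called lower. Of the 267, 21 changed sign, 9 of them on the spike-in scale. The split into 229 and 36 does not measure robustness, since many outcomes were fixed in advance. The highest floor lay below every probe set behind the main values, and a median over at most 2 probe sets equals their mean. Leaving out probe sets of the _a_at, _s_at and _x_at types, which can bind more than 1 transcript, dropped chrd.1 and left the other genes unchanged. Spike-in scaling lowers all ratios to control by 0.45 or 0.55, so each had to move past 0.36. The number of arrays limits the precision.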

Other observations

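Relatives of the organizer genes by name, which the rule leaves out, were looked at after their values were seen. The gene otx1.L, which like otx2 is used in the anterior neural plate, read 3401 (control), 1682 (GlyR+IVM) and 3209 (DN-KATP), 2-fold lower in GlyR+IVM (log2 ratio of -1.02). The LIM-homeobox gene lhx5.S, also of the anterior neural plate, had 1181, 714 and 900 at a probe set that can bind more than 1 transcript. GlyR+IVM was the dimmest array for both, as it was for otx2.L, but otx2.S was dimmest in DN-KATP. The lhx1.L probe sets that reached 40 were dimmest in the control. For dand5.S, of the Cerberus and Dan family, a probe set had 160, 128 and 105 and another 47.3, 16.4 and 23.4. Both depolarized arrays were thus below the control. The second probe set was past 2-fold lower in both (-1.52 and -1.01), as were 0.665% of all probe sets, but its control signal was just over 40. The gene dkk3.S had 82.8, 74.6 and 44.2, and nog2.L, a relative of noggin, read 6.86, 8.77 and 40.4, just reaching 40 in DN-KATP and past 2-fold higher there. The probe sets of nog4.S, dkk2.L, sfrp5.L and sfrp5.S stayed under 40 on all 3 arrays. None of these values has a replicate.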
